A study of Mus musculus with 1 sample.

Results

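The primary (azurophil) granule is the first granule that a neutrophil makes, at the promyelocyte stage. Among the 54532 genes of the deposited table, 10 genes grouped under its proteins were examined, although *Serpinb1a* encodes a cytosolic inhibitor. They were taken by name: *Mpo*, *Elane*, *Prtn3*, *Ctsg*, *Ctsc*, *Srgn*, *Serpinb1a*, *Ms4a3*, *Nkg7* and *Cd63*, and each symbol was mapped to 1 Ensembl identifier of the table. No measured value entered the choice, although earlier results of these data were known when it was made. The study asked how loss of *Gadd45g* leads to myeloproliferative neoplasm (MPN) in mice, and compared c-kit+ bone marrow (BM) cells of *Gadd45g*-deficient mice with MPN and of Ctrl mice. The data examined here are the 1 RNA-seq library of the Ctrl mice, of wild type genotype on the C57BL/6 strain, for which the labels name no treatment. Cells had been sorted by flow cytometry, with a gate that the labels give as lineage-negative, c-kit-positive and Sca1-negative. The age, the number and any pooling of the Ctrl mice are not given in the sources used here, and the library of mice with MPN was not analysed here. With 1 library there are no replicates and no test between conditions, and no p-value is given.

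The primary granule is a specialised lysosome that stores its enzymes in active form. Its serine proteases, neutrophil elastase, proteinase 3 and cathepsin G, are made as inactive precursors and are cut into active form by cathepsin C, while myeloperoxidase turns hydrogen peroxide and chloride into hypochlorous acid. The enzymes are positively charged and are packed on the sulfated sugar chains of the proteoglycan serglycin, the granule membrane carries the tetraspanin CD63, and the cytosolic inhibitor encoded by *Serpinb1a* guards the cell against protease that leaks out.

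The sequences that set these proteins apart were read by script from the mouse genome (GRCm38) with GENCODE M21 gene models, as coding DNA. The first set shows what the 3 serine protease genes share at the catalytic centre. Each stretch is 63 bases long, with 24 bases at the end of exon 4 and 39 bases at the start of exon 5 of 5, and the capitals mark the codon of the active-site serine with its 2 neighbouring codons on either side. The *Elane* stretch is at chr10:79887776-79887799 and chr10:79887917-79887955 (plus strand), the *Prtn3* stretch at chr10:79882142-79882165 and chr10:79882818-79882856 (plus strand), and the *Ctsg* stretch at chr14:56100543-56100566 and chr14:56100112-56100150 (minus strand).
Elane: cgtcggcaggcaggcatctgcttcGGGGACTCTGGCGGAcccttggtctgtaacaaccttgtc
Prtn3: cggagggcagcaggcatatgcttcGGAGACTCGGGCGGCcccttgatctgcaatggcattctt
Ctsg: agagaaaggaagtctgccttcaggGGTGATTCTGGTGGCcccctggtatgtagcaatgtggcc
The *Elane* and *Prtn3* stretches were the same at 73.0% of the 63 positions, *Elane* and *Ctsg* at 52.4%, and *Prtn3* and *Ctsg* at 38.1%. Over the whole coding sequence, identity in a global alignment was 60.2% for *Elane* and *Prtn3*, 52.4% for *Elane* and *Ctsg*, and 53.3% for *Prtn3* and *Ctsg*. The intron between exons 4 and 5 therefore cuts all 3 genes at the same distance before the serine codon.

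The second set shows the features by which *Srgn* and *Cd63* serve the granule. The *Srgn* stretch, at chr10:62494998-62495057 (minus strand) in exon 4 of 4, encodes the run of 10 serine-glycine pairs to which the sugar chains of serglycin are attached, and the capitals mark the serine codons. The *Cd63* stretch, at chr10:128912693-128912737 (plus strand) in exon 9 of 9, holds the last 45 coding bases before the stop codon, and the capitals mark the 5 codons of the lysosomal sorting signal at the tail of the protein.
Srgn: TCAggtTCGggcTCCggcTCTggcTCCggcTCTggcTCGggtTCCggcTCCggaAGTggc
Cd63: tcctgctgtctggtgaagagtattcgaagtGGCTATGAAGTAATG

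The table gives 1 value per gene in FPKM, the fragments on a gene scaled by its length in kilobases and by the size of the library. Multiplied by the length of all exons of the gene, the values were whole multiples of 1 step, within 0.01, for 96.4% of the genes above 0, so the fragments behind a value could be recovered. They summed to 17113323, above the library total of 15783891 to which the step corresponds, and the cause of the gap was not tested. The share of whole multiples was 99.9% outside chromosomes 17, 18 and 19 but 48.9% on chromosome 19, where *Ms4a3* and its relatives lie, and this cause was not tested either. All 10 members gave whole numbers, and the intervals of levels below are 95% Wilson intervals of those fragments, which cover counting error only. *Kit*, the gene of the sorted receptor, was at 7.17 FPKM, and *Ly6a*, which encodes Sca1, the marker that the gate leaves out, was at 28.5 FPKM. Of the marker lists, mature neutrophil genes held 8.39% of the summed FPKM, with 7 of 7 at 1 FPKM or more. Erythroid genes held 9.93%, with 6 of 6. The 6 GMP (granulocyte-monocyte progenitor) genes were at 5.22 to 151 FPKM, and 0 of 5 HSC genes reached 1 FPKM. At 1 FPKM or more were also 6 of 6 B cell genes (*Cd79a* highest at 173 FPKM) and 6 of 6 monocyte genes (*Ly6c2*, 289 FPKM). So were 7 of 7 basophil and mast cell genes (*Prss34*, 168 FPKM) and 5 of 5 T cell genes (*Lck*, 11.1 FPKM). Of the megakaryocyte genes, 5 of 6 were (*Ppbp*, 38.7 FPKM), beside 46.8% of protein-coding genes. Eosinophil and natural killer cell markers are given below. In such a bulk library, fewer cells of a type and less RNA per cell cannot be told apart, and the cells that each member's RNA came from were not tested.

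All 10 members were detected at 1 FPKM or more, a level that 22.2% of all genes and 46.8% of protein-coding genes reached. All 10 were also above 10 FPKM (9.37% of all genes and 21.2% of protein-coding genes), and 6 of 10 were above 100 FPKM (0.948% of all genes and 2.06% of protein-coding genes). The members' median was 192 FPKM, beside 7.78 FPKM over all genes at 1 FPKM or more. Together they held 2433 FPKM, or 0.567% of the summed FPKM. Of this, 75.4% lay on 4 genes, *Elane*, *Mpo*, *Prtn3* and *Ctsg*, which encode the serine proteases and the peroxidase among the members.

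**Figure D1:**
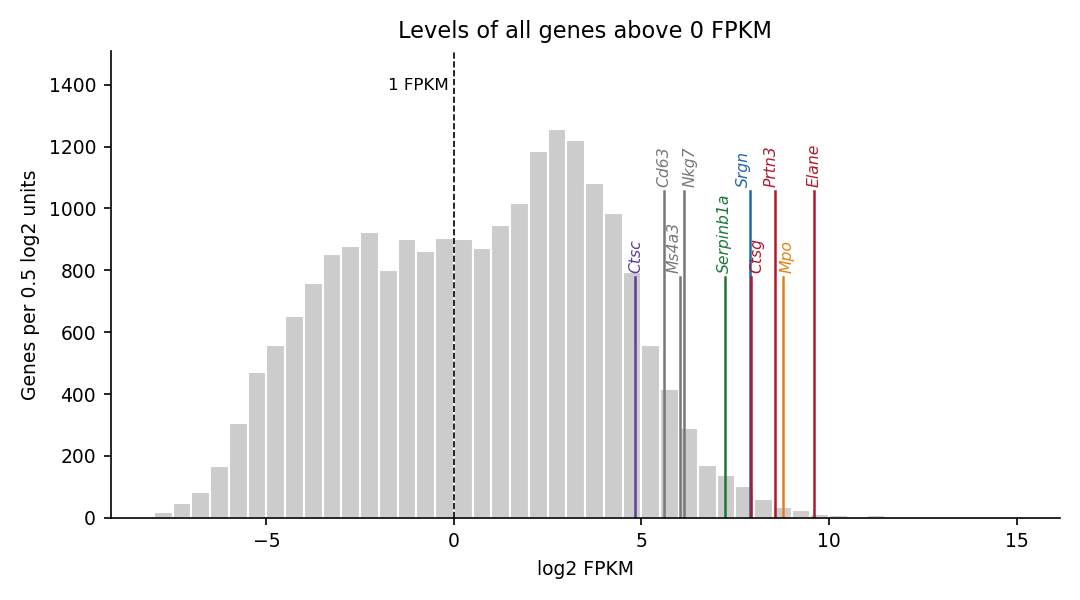
Number of genes (vertical axis) per 0.5 log2 units of FPKM (horizontal axis) for all genes above 0 FPKM in the Ctrl library, with each member as a vertical line colored by role (line height has no meaning). All 10 members lie to the right of the 1 FPKM line, between *Ctsc* at 28.6 FPKM and *Elane* at 781 FPKM.

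Among the serine proteases, *Elane* had the highest level of the 10 members. *Elane* (ENSMUSG00000020125, chr10:79886247-79888215, plus strand), which encodes neutrophil elastase, was at 781 FPKM (768 to 795, 12137 fragments), and 40 genes of the library were at or above this level. *Prtn3* (ENSMUSG00000057729, chr10:79874476-79883174, plus strand), which encodes proteinase 3, was at 379 FPKM (372 to 387, 10368 fragments). *Ctsg* (ENSMUSG00000040314, chr14:56099881-56102574, minus strand), which encodes cathepsin G, was at 241 FPKM (233 to 248, 3924 fragments). The order *Elane*, *Prtn3*, *Ctsg* was therefore larger than counting error at each step, with *Elane* at 2.06 times *Prtn3* (exact 95% interval 2.01 to 2.12) and *Prtn3* at 1.58 times *Ctsg* (1.52 to 1.64). Both ratios depended on gene length. The annotated exons of *Prtn3* cover 1732 bases, with an early start upstream, whereas its longest coding transcript has 1025 bases, and per length of that transcript *Elane* was at 1.22 times *Prtn3* (1.19 to 1.25) and *Prtn3* at 2.58 times *Ctsg* (2.49 to 2.68), while in fragments the latter ratio was 2.64.

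The peroxidase gene *Mpo* (ENSMUSG00000009350, chr11:87793581-87804413, plus strand) was at 434 FPKM (429 to 440). It had the most fragments of all members, 23461 or 32.6% of theirs, on exons of 3424 bases. *Elane* was at 1.80 times *Mpo* (1.76 to 1.84) per length, but had 0.517 times its fragments. The 3 proteases together were at 1401 FPKM, 3.23 times *Mpo* (3.17 to 3.29), whereas they had 1.13 times its fragments.

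*Ctsc* (ENSMUSG00000030560, chr7:88278085-88310888, plus strand), which encodes cathepsin C, the activator of the 3 proteases, had the lowest level of the members. It was at 28.6 FPKM (27.5 to 29.7, 2623 fragments), with 2075 genes at or above it. *Elane* was thus at 27.3 times its activator (26.2 to 28.5), and the 3 proteases together at 49.0 times (47.0 to 51.0). The size of this gap depended on gene length, since the exons of *Ctsc* cover 5808 bases and the transcript with the longest coding sequence has 2493. Per length of that transcript *Ctsc* was at 66.7 FPKM (64.2 to 69.3) and remained the lowest member, with the 3 proteases at 25.1 times its level. *Nkg7* was next at 73.2 FPKM (68.8 to 77.8), and the intervals overlapped. In fragments *Nkg7* (1018) and *Ms4a3* (1945) were below *Ctsc*.

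*Srgn* (ENSMUSG00000020077, chr10:62493833-62527451, minus strand), the serglycin gene, was at 236 FPKM (230 to 241, 8164 fragments). The level of this packing proteoglycan did not differ from that of *Ctsg* by more than counting error, with a ratio of *Ctsg* to *Srgn* of 1.02 (0.983 to 1.06). *Serpinb1a* (ENSMUSG00000044734, chr13:32842092-32851185, minus strand), whose product inhibits all 3 serine proteases, was at 149 FPKM (145 to 153, 5408 fragments). The proteases together were at 9.42 times their inhibitor (9.15 to 9.70), at 9.35 times per length of the longest coding transcripts, and at 4.89 times in fragments not divided by length.

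The 3 genes of membrane proteins lay between *Serpinb1a* and *Ctsc* per length of all exons. *Nkg7* (ENSMUSG00000004612, chr7:43437073-43438249, plus strand), whose product lies in the membrane of cytotoxic granules, was at 70.6 FPKM (66.4 to 75.0, 1018 fragments). *Ms4a3* (ENSMUSG00000024681, chr19:11629496-11640851, minus strand), a tetraspan gene known as a marker of granulocyte-monocyte progenitors, was at 65.4 FPKM (62.6 to 68.4, 1945 fragments). *Cd63* (ENSMUSG00000025351, chr10:128900989-128912822, plus strand), the classic marker of the azurophil membrane, was at 48.6 FPKM (46.9 to 50.5, 2827 fragments). *Nkg7* and *Ms4a3* did not differ by more than counting error (ratio 1.08, 0.999 to 1.16), and *Ms4a3* was at 1.34 times *Cd63* (1.27 to 1.43). Since *Nkg7* is best known from natural killer (NK) cells, the NK cell markers are given beside it. Of these, 7 of 7 were at 1 FPKM or more, beside 46.8% of protein-coding genes, from *Eomes* at 1.31 FPKM to *Gzma* at 7.998 FPKM. The summed level of these markers was 19.1 FPKM, below that of *Nkg7* alone. Their part in the level of *Nkg7* was not tested.

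The order of the membrane proteins turned with the length used. The exons of *Cd63* cover 3682 bases, 3.32 times the longest coding transcript of 1109 bases, and per length of that transcript *Cd63* was at 162 FPKM, above *Ms4a3* at 122 FPKM and *Nkg7* at 73.2 FPKM. *Mpo* and *Prtn3* also changed places (541 and 641 FPKM), as did *Srgn* and *Ctsg* (299.5 and 248 FPKM). In all, 6 of 10 members changed place, while *Elane* stayed first, *Serpinb1a* sixth, *Ms4a3* eighth and *Ctsc* last. Exons of 4 of 10 members covered over 1.5 times the longest coding transcript, beside 36.5% of protein-coding genes at 1 FPKM or more, and 4 of 10 did so for the transcript with the longest coding sequence, beside 41.3%. Both shares are near the background.

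**Figure D2:**
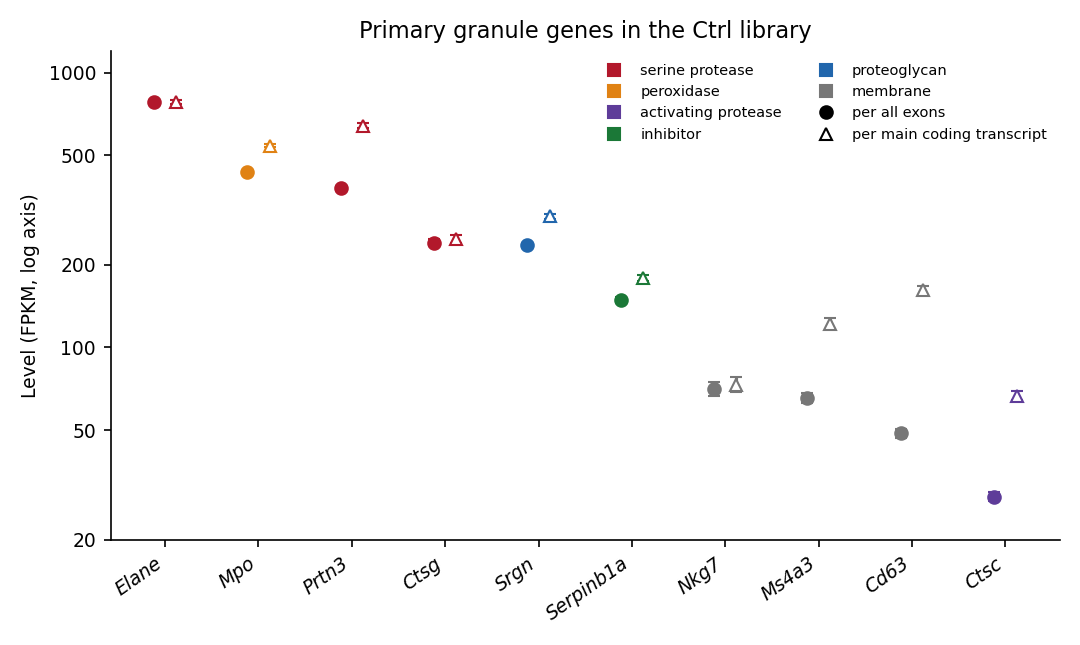
Level of each member in the Ctrl library in FPKM on a log axis, with 95% Wilson intervals (counting error only), per length of all exons (filled circles) and per length of the transcript with the longest coding sequence (open triangles), colored by role. The circles fall from *Elane* at 781 FPKM to *Ctsc* at 28.6 FPKM, and the triangles stand far above the circles for *Prtn3*, *Ms4a3*, *Cd63* and *Ctsc*.

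Sequence shared with other genes could blur some of these levels. No 50-base stretch of *Elane*, *Ctsg*, *Srgn*, *Ms4a3* or *Nkg7* transcripts occurred in another annotated gene. For *Cd63* 11.1% of such stretches did, most of them in the pseudogene *Cd63-ps*, which was itself at 22.8 FPKM. How many fragments of *Cd63* this touches was not measured, so its level is uncertain. For *Serpinb1a* the share was 2.81%, although its paralogs *Serpinb1b* and *Serpinb1c* were 89.8% and 88.2% identical over the coding sequence. Of these paralogs, *Serpinb1b* had 1 fragment (0.0329 FPKM) and *Serpinb1c* was at 0, where 3 fragments would give 0.116 FPKM. Exons were shared with another gene by 2 of 10 members, beside 36.3% of protein-coding genes at 1 FPKM or more. *Mpo* shared 512 exonic bases (14.95%) with the antisense gene *Gm11505* (0.258 FPKM), and *Prtn3* shared 159 bases (9.18%) with *Plppr3* on the opposite strand (7.97 FPKM). Whether fragments were counted by strand is not given in the sources used here, so reads of these overlaps cannot be told apart.

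Next, each member was set beside its relatives. In the heme peroxidase family, *Mpo* was at 2.01 times *Epx* (1.96 to 2.06), the eosinophil peroxidase gene, which was at 216 FPKM. *Lpo*, the lactoperoxidase gene, was at 0.404 FPKM. The coding sequences of *Mpo* and *Epx* were 70.9% identical. The eosinophil markers listed with *Epx* were also present, with 6 of 6 at 1 FPKM or more, beside 46.8% of protein-coding genes. *Prg2*, the major basic protein gene, was at 2766 FPKM. Of the 14 relatives of the 3 serine proteases, 6 were at 1 FPKM or more, beside 46.8% of protein-coding genes, and their median was 0.420 FPKM. The highest were the basophil proteases *Prss34* at 168 FPKM, whose multiple was not whole and which therefore has no interval, and *Mcpt8* at 87.0 FPKM (82.5 to 91.7), followed by *Gzma* at 7.998 FPKM. In deposited FPKM all 3 serine protease members were thus above every relative on the list. For *Prss34* this could not be checked against counting error or with another length.

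*Ctsc* and *Cd63*, on the other hand, were not the highest of their families. Of 9 other cysteine cathepsins, all were at 1 FPKM or more, beside 46.8% of protein-coding genes. *Ctss* was at 199 FPKM, *Ctsb* at 145 FPKM, *Ctsz* at 119 FPKM and *Ctsk* lowest at 1.93 FPKM. *Ctss* was at 6.95 times *Ctsc* (6.62 to 7.30), and at 2.99 times per length of the transcripts with the longest coding sequence. Among 8 other tetraspanins the median was 74.8 FPKM, with *Cd53* at 182 FPKM, *Cd82* at 94.9 FPKM, *Cd37* at 82.1 FPKM and *Cd151* lowest at 5.57 FPKM. *Cd53*, a tetraspanin of all leukocytes, was at 3.73 times *Cd63* (3.56 to 3.91), but at 1.12 times (1.07 to 1.18) per length of the longest coding transcripts. Per that length *Cd63* was at 162 FPKM, above the median of the other tetraspanins at 124 FPKM. Per length of all exons *Cd63* (48.6 FPKM) was below their median. *Ms4a3* was above all 10 listed relatives of the MS4A family, at 1.59 times *Ms4a6c* (1.48 to 1.71), which was at 41.1 FPKM, and at 2.67 times (2.49 to 2.86) per length of the longest coding transcripts. *Ms4a4c* was at 29.3 FPKM, the B cell gene *Ms4a1* at 17.8 FPKM and *Ms4a4d* lowest at 0.126 FPKM.

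**Figure D3:**
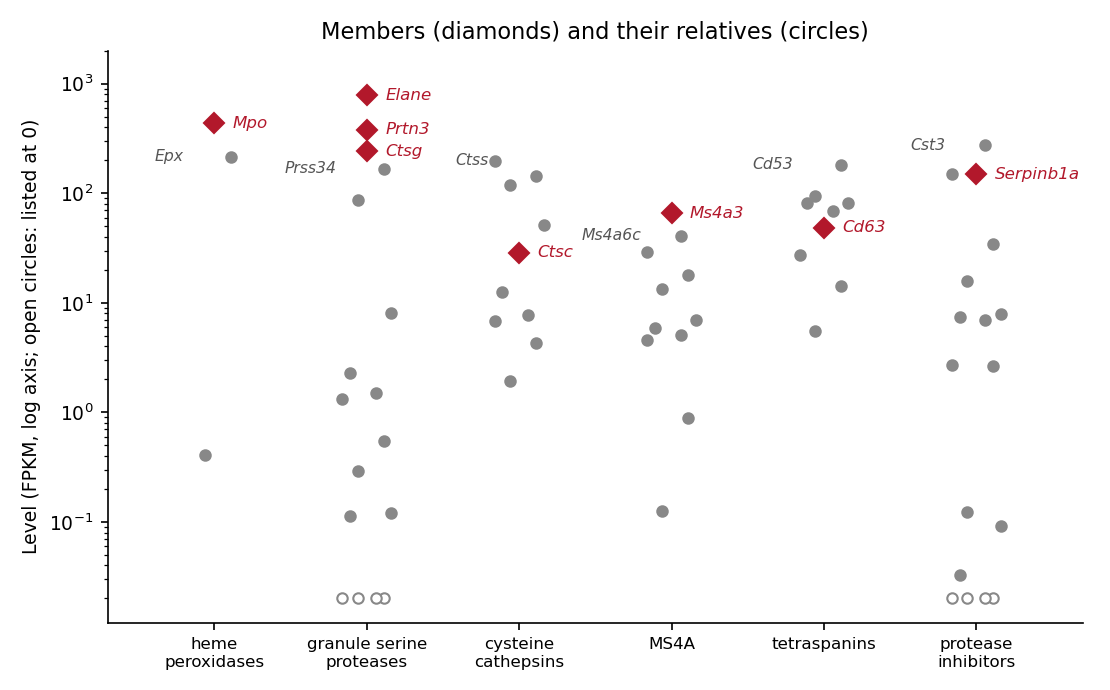
Level in FPKM (log axis) of the members (red diamonds) and of the relatives reported here (grey circles, open and placed at 0.02 where listed at 0) by family, with the highest relative named. *Mpo*, the 3 serine proteases and *Ms4a3* stand above all relatives shown, whereas *Ctsc* and *Cd63* do not. The protease inhibitors beside *Serpinb1a* were listed by function and not by family, and among them *Cst3* stands above it.

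Of 16 protease inhibitors other than *Serpinb1a*, 9 were at 1 FPKM or more, 4 were listed at 0 and 2 reached 100 FPKM, with a median of 2.67 FPKM. Of protein-coding genes, 46.8% were at 1 FPKM or more and 2.06% at 100 FPKM or more. *Cst3*, which encodes cystatin C, was the highest at 275 FPKM. *Slpi*, an inhibitor of elastase and cathepsin G, was at 151 FPKM and did not differ from *Serpinb1a* by more than counting error (ratio 1.01, 0.967 to 1.06). Per length of the longest coding transcripts *Slpi* was at 1.14 times *Serpinb1a* (1.08 to 1.19), and in fragments at 0.519 times, so their order turned with the measure. *Cst7*, which encodes cystatin F, an inhibitor of cathepsin C, was at 34.2 FPKM (31.4 to 37.2). *Cst7* was at 1.19 times *Ctsc* (1.09 to 1.31), whereas per length of the transcripts with the longest coding sequence it was at 0.513 times, so the order of the activator and its inhibitor turned with the length used.

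Further genes of azurophil and lysosomal proteins were also present, not all of them particular to this granule. Of 18 such genes, 17 were at 1 FPKM or more, a level that 46.8% of protein-coding genes reached. Their median was 32.3 FPKM. *Lyz2*, the lysozyme gene, was the highest at 7314 FPKM, 9.36 times *Elane* (9.19 to 9.54), although lysozyme is also stored in the later granules and made by monocytes. *Ctsd* followed at 169 FPKM and *Lamp1*, a gene of lysosomal membranes rather than of granule contents, at 159 FPKM. The bactericidal protein gene *Bpi* was listed at 0, where 3 fragments would give 0.0987 FPKM. *Prss57*, which encodes neutrophil serine protease 4, the fourth protease of the granule, was at 14.3 FPKM, and *Elane* was at 54.6 times this level (50.4 to 59.2).

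Genes of granule biogenesis and traffic, many of which also serve other organelles, were examined as well. All 20 were at 1 FPKM or more, a level that 46.8% of protein-coding genes reached. Their median was 17.1 FPKM, and their part in building this granule was not tested. *Calr*, the chaperone calreticulin, which helps to fold myeloperoxidase, was the highest at 268 FPKM, followed by *Canx* at 72.8 FPKM and the adaptor subunit gene *Ap3s1* at 63.2 FPKM. *Jagn1*, a gene of inherited neutropenia, was the lowest at 4.03 FPKM. Of 14 enzymes that build the chondroitin sulfate chains of serglycin, 12 were at 1 FPKM or more, with a median of 7.84 FPKM. The sulfotransferase gene *Chst12* was at 42.0 FPKM, *B3gat3* at 37.2 FPKM, *Csgalnact2* at 22.6 FPKM and *Chsy3* at 0.0648 FPKM. The core protein gene *Srgn* was thus above each enzyme of its sugar chains.

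In addition, all 10 listed transcription factors, which are not particular to the promyelocyte stage, were at 1 FPKM or more. This level was reached by 46.8% of protein-coding genes, and the median of the factors was 39.3 FPKM. In the C/EBP family, which switches on granule genes in sequence, *Cebpb* was at 190 FPKM (185 to 196), *Cebpe*, the factor of the later granules, at 131 FPKM (126 to 137), *Cebpa*, the factor of the early stage, at 38.1 FPKM (36.3 to 40.1) and *Cebpd* at 35.4 FPKM (33.9 to 37.0). *Spi1*, which encodes PU.1, was at 137 FPKM (134 to 141). *Irf8* was at 46.5 FPKM, *Cbfb* at 40.4 FPKM, *Myb* at 16.5 FPKM, *Gfi1* at 15.9 FPKM and *Runx1* at 5.91 FPKM.

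The promoters of the members were then searched for motifs of these factors. Promoters were the 250 bases before and 50 bases after the RefSeq gene start (GRCm38.p6), and 9 of 10 members had one, all except *Serpinb1a*. The motifs, searched on both strands, were GAGGAAG for PU.1, TTGCNNAA for C/EBP, AACNGNC for MYB and TGTGGT for RUNX. The PU.1 motif lay in 6 of 9 member promoters, beside 13.6% of 32851 promoters and 14.1% of the promoters of genes at 1 FPKM or more. The C/EBP motif lay in 1 of 9 (*Ms4a3*) beside 10.8% of all promoters, the MYB motif in 4 of 9 beside 32.8%, and the RUNX motif in 3 of 9 beside 16.8%. These counts are descriptions with no test, and a match is not a site of binding.

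The PU.1 matches are printed since they were the most frequent of the 4 in the members. Each line gives the gene's own strand, and the capitals mark the motif or its reverse complement, which overlapped no match of the other motifs.
Elane: gtgtcccaggGAGGAAGtagggctgtg
Prtn3: aaactggaagGAGGAAGtgggacccac
Mpo, first match: taaGAGGAAGgggctgtgga
Mpo, next match: tggagagagaGAGGAAGttgcctttgt
Ctsg: cccagaaggaGAGGAAGaaaaggaagt
Ctsc, first match: cactttccttCTTCCTCctagtggtgc
Ctsc, next match: cactaactaaCTTCCTCaggccacctc
Cd63: tagacaagggCTTCCTCaaagggtttt
The *Elane* stretch is at chr10:79886217-79886243 (plus strand), with the motif 85 bases before the start, and the *Prtn3* stretch at chr10:79879562-79879588 (plus strand), with the motif 95 bases before it. The *Mpo* stretches are at chr11:87793534-87793553 and chr11:87793550-87793576 (plus strand), 247 and 224 bases before the start. The *Ctsg* stretch is at chr14:56102774-56102800 (minus strand), 216 bases before the start. The *Ctsc* stretches are at chr7:88277878-88277904 and chr7:88277925-88277951 (plus strand), 197 and 150 bases before it, and the *Cd63* stretch at chr10:128909275-128909301 (plus strand), 60 bases before it. In *Elane*, *Prtn3*, *Mpo* and *Ctsg* the motif was on the strand of the gene, and in *Ctsc* and *Cd63* on the other. The starts here are those of RefSeq. By the GENCODE gene spans given above, the *Prtn3* and *Cd63* stretches lie inside the gene.

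Position in the genome was then examined, with protein-coding genes within 100 kb on either side. Of the 9 members with such a neighbour, 8 were above every neighbour, and *Prtn3* was below only *Elane*. Of protein-coding genes with such a neighbour, 32.8% of those at 1 FPKM or more and 67.4% of those between the levels of *Ctsc* and *Elane* were above every neighbour. *Elane* and *Prtn3* lie in tandem with 3072 bases between them. Around them *Ptbp1* was at 75.5 FPKM, *Arid3a* at 37.5 FPKM, *R3hdm4* at 37.2 FPKM and *Prss57* at 14.3 FPKM. *Ctsg* lies in a cluster of mast cell protease and granzyme genes on chromosome 14, in which *Mcpt8*, whose start is 17.3 kb from that of *Ctsg*, was at 87.0 FPKM and the other 8 neighbours were at 0.119 FPKM or less. *Ctsg* was at 2.77 times *Mcpt8* (2.60 to 2.94). *Mpo* lies beside its relatives, with 2014 bases between *Mpo* and *Lpo* and 35710 bases between *Lpo* and *Epx*, so that the peroxidase gene between the pair of highly expressed ones was itself at 0.404 FPKM.

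The other members stood in more mixed surroundings. The highest neighbour of *Srgn* was *Vps26a* at 29.7 FPKM, that of *Nkg7* was *Cd33* at 32.7 FPKM, that of *Cd63* was *Dnajc14* at 16.9 FPKM and that of *Serpinb1a* was *Wrnip1* at 10.2 FPKM. *Ms4a3* lies among its relatives, where *Ms4a6b* was at 13.3 FPKM and *Ms4a2*, which encodes the beta chain of the IgE receptor, at 4.62 FPKM. *Ctsc* had no protein-coding gene within 100 kb.

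**Figure D4:**
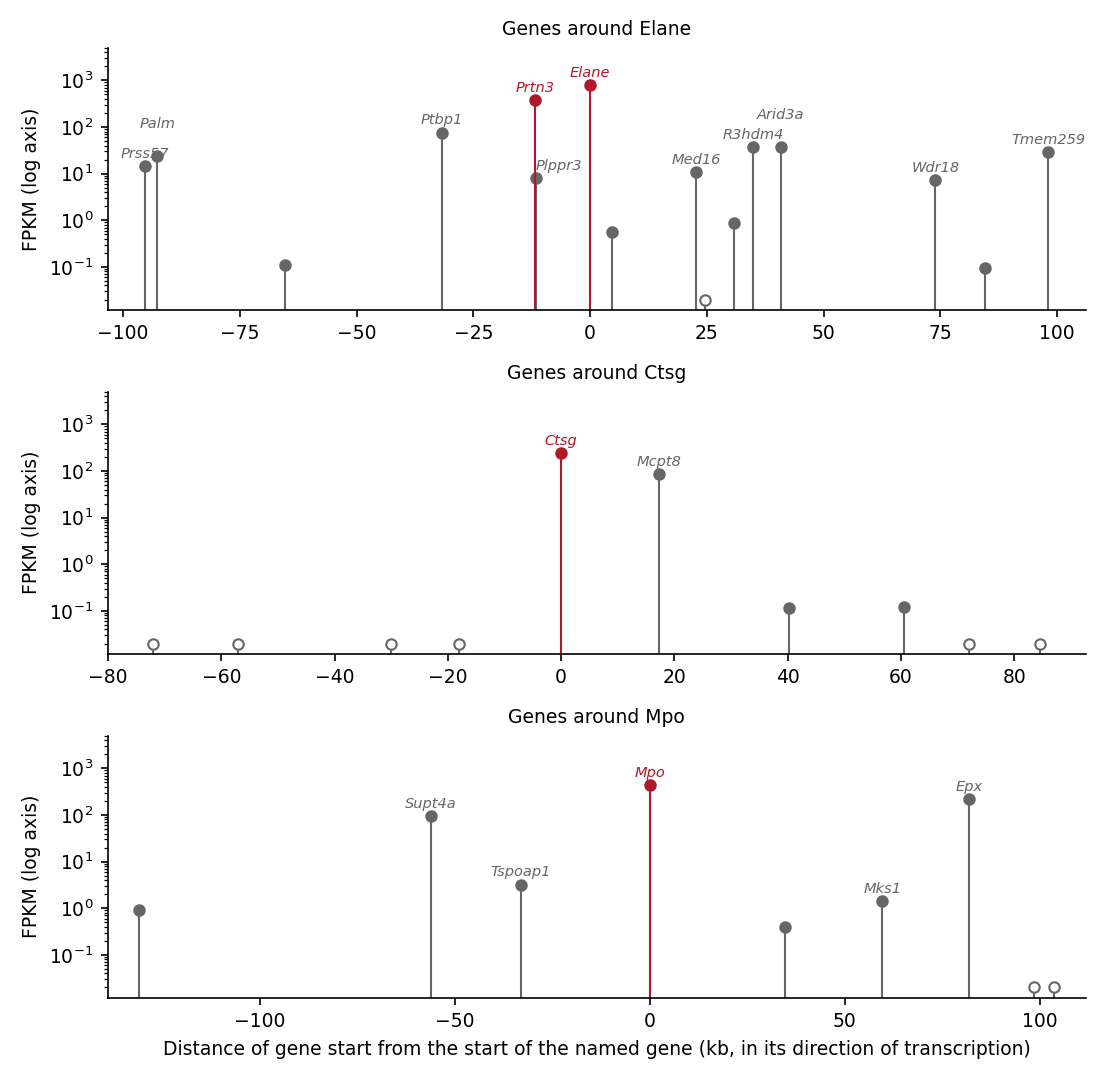
Level in FPKM (log axis, open circles at 0.02 for genes listed at 0) of protein-coding genes around *Elane*, *Ctsg* and *Mpo* against the distance of their starts in kb, with members in red and genes at 1 FPKM or more named. In each panel a member has the highest level, with *Mcpt8* (87.0 FPKM) and *Epx* (216 FPKM) as the closest relatives in level around *Ctsg* and *Mpo*.

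Finally, the members were set beside 11 genes of secondary and tertiary granules, which a neutrophil makes from the myelocyte stage on. All 11 were detected at 1 FPKM or more, beside 46.8% of protein-coding genes. Their median was 1380 FPKM, from *Itgb2l* at 88.9 FPKM to *Ngp* at 8470 FPKM, and they held 5.34% of the summed FPKM. *Camp*, which encodes the antimicrobial peptide precursor cathelicidin, was at 3872 FPKM, and *Retnlg* at 2831 FPKM. The median of the later granule genes was 7.18 times that of the primary granule genes, and 10.2 times per length of the longest coding transcripts. Of the 11 genes, 6 were above *Elane*, 10 were above the members' median and 0 were below *Ctsc*. Mature neutrophil markers were high as well, with *S100a9* at 26677 FPKM and *Fpr1* lowest at 58.8 FPKM, and their part in the levels of the members and of the later granule genes was not tested. With 1 library the difference between the lists has no replicate check.

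**Figure D5:**
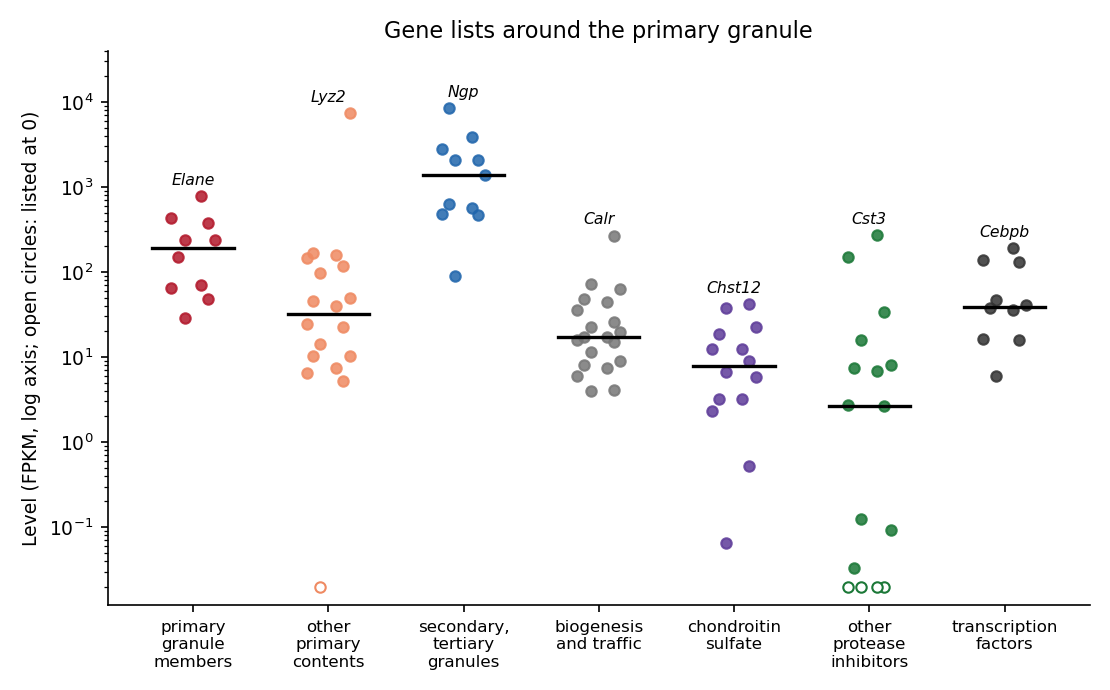
Level in FPKM (log axis) of each gene (circles, open and placed at 0.02 where listed at 0) in the lists around the primary granule, with black bars at the medians and the highest gene of each list named. The members' median of 192 FPKM stands above those of the other lists except the secondary and tertiary granule genes, at 1380 FPKM.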

How the data were processed

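RNA of FACS-sorted c-kit+ BM cells was sequenced on an Illumina HiSeq instrument, and the authors deposited 1 FPKM value per gene. The submitters' processing notes name HISAT2 2.0.5, featureCounts 1.5.0-p3 and mm10. Their roles and settings, the annotation and the strandedness are not given in the sources used here. GENCODE M21 (GRCm38) supplied the symbols, gene lengths and positions, and RefSeq the promoters. The members and lists were chosen with earlier results of these data known. Fragments were recovered from FPKM and the length of all exons, a step tested on simulated data. Intervals are 95% Wilson intervals for levels, exact Clopper-Pearson intervals for ratios of 2 genes, and Poisson intervals by the delta method for ratios of sums. All members and all listed transcription factors were named. Of the other genes, the 3 highest and the lowest of each list and neighbours at 1 FPKM or more could be named. Not all of these were, for example *Supt4a* at 93.1 FPKM near *Mpo*. *Kit*, *Ly6a* and the genes that share sequence with members were named after their values were seen. A listed gene is not reported here. Scripts ran on Python 3.11.15 with Biopython 1.88, matplotlib 3.10.9, scipy 1.17.1, pandas 2.3.3 and numpy 2.4.6.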

Additional observations from a re-analysis of the deposited data

How the results depend on the processing

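No paired analysis was possible because 1 library was examined and no result comes from a test. Of the 10 members, 10 were at or above 0.1, 1 and 10 FPKM and 6 at or above 100 FPKM. The members' median was 209.7 FPKM with a total that omits the 10 genes of highest level, and 213 FPKM per length of the longest coding transcript or of the transcript with the longest coding sequence, an alternative chosen after seeing the data. Their share of the library was 0.420% of fragments, 0.766% of summed FPKM without the 10 most abundant other genes and 0.386% without *Elane*. *Elane* was at 15.1 times *Ctsc* per longest coding transcript, 11.7 times per transcript with the longest coding sequence and 4.63 times in fragments. The members' median over that of the later granule genes was 0.0978 under both transcript lengths and 0.149 in fragments. Under both transcript lengths the ratio of *Mpo* to *Prtn3* turned to 0.843, *Ctsg* to *Srgn* to 0.828, *Nkg7* to *Ms4a3* to 0.600 and *Ms4a3* to *Cd63* to 0.755. In fragments *Elane* to *Mpo* turned to 0.517, *Ctsg* to *Srgn* to 0.481, *Nkg7* to *Ms4a3* to 0.523 and *Ms4a3* to *Cd63* to 0.688. The turned ratios follow from dividing by another length or by none. Leaving out the 10 most abundant genes raised every level 1.09 times and leaving out mitochondrial genes 1.02 times, which changes no ratio, and adding 0.1 FPKM turned no ratio. Depth limits only genes near 0, and 1 library leaves the spread between mice unknown.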
